A study of Homo sapiens and Mus musculus with 25 samples.

Results

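The 10 genes described here carry iron into the cell, store it, let it out, or sense how much is there: TFRC, TFR2, SLC11A2, SLC25A37, FTH1, FTL, SLC40A1, IREB2, ACO1 and HFE. They were chosen by name, and each was read in a promoter window of 1 kb either side of its transcription start site (TSS) and in a window of 30 kb either side. All 10 were found among 19962 protein-coding genes on chromosomes 1 to 22 and X. The value given for a window is its coverage, the percent of its bases that lie under a peak.

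Iron bound to transferrin enters a cell through the transferrin receptor, leaves the endosome through a divalent metal transporter, and is then used in mitochondria for haem, stored in ferritin or exported through ferroportin. Iron regulatory proteins bind iron-responsive elements in the messages for several of these proteins, and so set much of this balance after transcription. Erythroid cells take up large amounts of iron for haemoglobin. Of the marks measured, methylation of lysine 4 of histone H3 as H3K4me3 is typical of active promoters, H3K4me1 of enhancers and promoter flanks, and H3K4me2 of both. H3K27me3 is the mark laid down by Polycomb complexes, and H3K9me3 is typical of heterochromatin.

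All libraries used here came from K562, an established human line grown from a chronic myeloid leukaemia and used as a model of erythroid progenitors. ICeChIP-seq was used, a form of ChIP-seq calibrated with barcoded nucleosomes of known modification that are mixed into the sample before the pull-down. The lists compared were those of 8 antibodies raised against H3K4me3, 4 against H3K4me2 and 5 against H3K4me1, with 1 list each for H3K27me3 and H3K9me3. The authors also computed 3 corrected lists, for H3K4me3, H3K4me2 and H3K4me1, from the libraries of Abcam ab12209, ab8580, ab7766 and ab8895, per the deposited notes.

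No K562 treatment or genotype was compared, so each contrast below is between antibody targets. Each antibody is 1 library on K562 chromatin, and nothing in the labels says that they came from separate cultures, so a p-value measures the spread between antibodies only. The lists give positions without read counts, so the depth is unknown, and a window without a peak does not show that the mark is missing. The lists held 13311 to 721215 peaks. The H3K4me3 list of Abcam ab8580 stood apart, with peaks over 769 Mb against 18.7 to 165 Mb in the other 7. Among H3K4me1 lists, that of Active Motif 39635 stood apart, with 39010 peaks of median width 25008.5 bases. The other H3K4me1 lists held 349557 to 600205 peaks, of median width 555 to 1005 bases. Active Motif 39635 gave the only H3K4me1 promoter coverage of 100% at FTH1, SLC40A1 and IREB2. The H3K9me3 list covered 2834 Mb and held a peak at 98.7% of promoters, so its full coverage of all 10 iron gene promoters separates nothing. Of 8 erythroid marker genes, 4, namely KLF1, TAL1, HBG1 and HBG2, had a promoter peak in all 17 H3K4 lists. No gene of the megakaryocyte, T cell, B cell, monocyte, hepatocyte and enterocyte marker lists, of 3 genes each, had one in all 17.

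All 10 promoters had a peak in the H3K4me3 lists of Abcam ab12209 (51.7% of all genes), Abcam ab8580 (75.3%), Abclonal A2357 (58%), EMD Millipore 05-745R (57.8%), EMD Millipore 07-473 (69.5%) and Thermo Fisher PA5-40086 (53.4%), and 8 had one in those of Diagenode C15410003 (40.2%) and EpiGentek A-4033-050 (33.5%). All 10 had a peak in the H3K4me2 lists of Abcam ab7766 (76.9%), Cell Signaling Technologies 9725 (85.1%), EMD Millipore 05-1338 (68%) and Thermo Fisher 710796 (73.8%). In the H3K4me1 lists it was 10 for Abcam ab8895 (76.1%), EpiGentek A-4031-050 (84.2%) and Thermo Fisher 710795 (77.8%), and 9 for Active Motif 39635 (70.7%) and Cell Signaling Technologies 5326 BF (81.3%). A promoter peak, of at least 1 base, was present in all 17 H3K4 lists for 8 of the 10 genes, against 27.9% of all genes. The exceptions were SLC25A37 and ACO1, which had a peak in 15 and 13 of the 17 lists. All 8 H3K4me3 lists held a peak at 8 of 10 promoters (31.1% of all genes), all 4 H3K4me2 lists at 10 of 10 (59.5%), and all 5 H3K4me1 lists at 9 of 10 (60.8%). The mean promoter coverage had a median over the 10 genes of 96.6% in H3K4me3 lists, 96.9% in H3K4me2 lists and 72.0% in H3K4me1 lists, and the same medians over all genes were 41.5%, 81.7% and 67.0%.

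**Figure D1:**
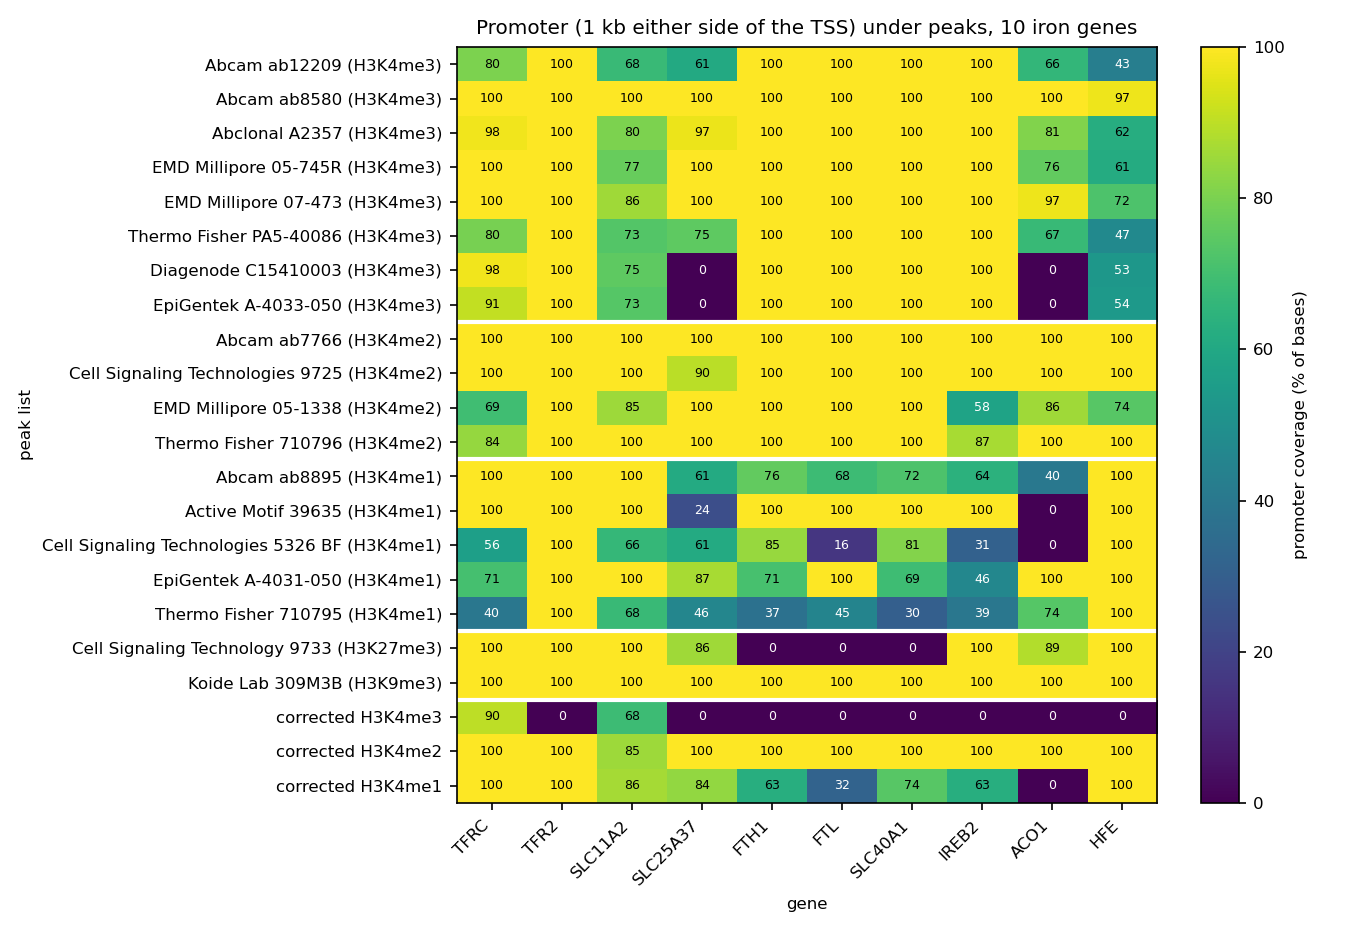
Promoter coverage (percent of the bases within 1 kb of the TSS that lie under a peak) of the 10 iron genes, given as colour and rounded number, in each of 22 peak lists; rows are lists, grouped by target, and columns are genes. SLC25A37 and ACO1 were at 0 in the same 2 H3K4me3 lists, and the corrected H3K4me3 list held a promoter peak for TFRC and SLC11A2 alone among the 10.

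Among the uptake genes, TFRC encodes the transferrin receptor (ENSG00000072274.14, chromosome 3, minus strand, TSS 196082090 on GRCh38). Its promoter coverage had a lowest value of 79.7%, a median of 97.9% and a highest of 100% in the 8 H3K4me3 lists. In the 4 H3K4me2 lists it was 69.2%, 84.2%, 100% and 100%, and in the 5 H3K4me1 lists 39.8%, 56.3%, 70.6%, 100% and 100%. The targets overlapped. Coverage was 93.3% ± 8.78 (SD, n = 8) for H3K4me3 and 73.4% ± 26.7 (SD, n = 5) for H3K4me1, a difference of 19.9 percentage points that did not pass (exact permutation test, adjusted p = 0.178). The H3K4me3 peak over the TSS was 4704 to 9364 bases wide and lay mostly inside the gene, reaching 593 to 1849 bases upstream and 4107 to 7514 bases downstream. It was wider than 98.4% to 99.5% of the peaks of its list in every H3K4me3 list. The mark of the start itself differed: the TSS base lay under a peak in 8 of 8 H3K4me3 lists, 2 of 4 H3K4me2 lists and 2 of 5 H3K4me1 lists.

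The corrected lists gave each mark another extent at TFRC. The corrected H3K4me3 peak (chr3:196077816-196082892, 5077 bases) ran from 802 bases upstream to 4274 bases downstream, and 99.9% of that list's peaks were narrower. The corrected H3K4me2 peak reached beyond it on both sides, by 5048 bases upstream and 6390 bases downstream of the TSS. The corrected H3K4me1 peak over the TSS reached 16773 bases upstream and 1299 bases downstream. It was not the only one: that list covered 97.2% of the bases within 30 kb either side, so further peaks lay downstream. Ranked by the authors' own value per peak, the TFRC promoter peak stood above 94.7%, 97.4% and 96.3% of the peaks in the corrected H3K4me3, H3K4me2 and H3K4me1 lists.

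SLC11A2 encodes the divalent metal transporter that moves iron out of the endosome (ENSG00000110911.17, chromosome 12, minus strand, TSS 51026384). Its coverage was 68.0% at lowest, 75.9% at median and 100% at highest in H3K4me3 lists, 85.4%, 100%, 100% and 100% in H3K4me2 lists, and 66.5%, 67.9%, 100%, 100% and 100% in H3K4me1 lists. The H3K4me3 peak began 359 to 713 bases upstream of the TSS in 7 lists, and 2960 bases upstream in that of Abcam ab8580. The gene has a further annotated start 2182 bases upstream, used by other transcripts. The window around that start held a peak in 3 of 8 H3K4me3 lists, with a mean coverage of 23.0% ± 38.3 (SD, n = 8), against 4 of 4 H3K4me2 lists (91.7% ± 16.6, SD, n = 4) and 5 of 5 H3K4me1 lists, all at 100%. H3K4me3 minus H3K4me1 was -77.0 points there (exact permutation test, adjusted p = 0.0107) and -7.85 points at the canonical start (adjusted p = 0.445). With 2.5 kb either side of the canonical start it was -24.5 points (exact permutation test, adjusted p = 0.0449). A start 1541 bases downstream had a peak in 8 of 8 H3K4me3 lists, at 95.0% ± 8.60 (SD, n = 8). H3K4me3 lay at the canonical start and at the one 1541 bases downstream in every list, and at the upstream start in fewer. The windows of the canonical start and of the one 1541 bases downstream overlap. Further annotated starts, 17114 to 34717 bases downstream, held a peak in 1 of 8 H3K4me3 lists each.

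TFRC and SLC11A2 were the 2 of 10 genes with a promoter peak in all 3 corrected lists, against 16.4% of all genes, and their upstream promoter sequence is given for that reason. Both are RefSeq sequences of GRCh38.p14, read 5′ to 3′ in the direction of the gene and limited to bases outside annotated exons, from chr3:196082154-196082340, minus strand, and chr12:51026401-51026634, minus strand. Capitals mark the motifs searched on both strands: the GC box GGGCGG, the CCAAT box, the GATA motif AGATAA, the antioxidant response element core TGACNNNGC, the E-box CACGTG and the TATA box TATAAA.
TFRC: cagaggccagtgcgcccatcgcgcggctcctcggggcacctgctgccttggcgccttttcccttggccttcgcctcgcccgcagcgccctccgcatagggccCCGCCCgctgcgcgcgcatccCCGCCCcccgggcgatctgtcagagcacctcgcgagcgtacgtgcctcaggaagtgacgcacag
SLC11A2: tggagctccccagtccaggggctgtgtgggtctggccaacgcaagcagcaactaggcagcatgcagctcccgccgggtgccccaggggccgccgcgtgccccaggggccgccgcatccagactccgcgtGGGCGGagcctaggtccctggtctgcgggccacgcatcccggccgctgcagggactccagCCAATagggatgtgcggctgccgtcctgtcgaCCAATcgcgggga
In the 250 bases before the TSS, TFRC held 3 GC boxes, of which 2 fall in the printed stretch, and SLC11A2 held 1 GC box and 2 CCAAT boxes. A GC box was present in 42.6% and a CCAAT box in 32% of 34789 RefSeq promoter windows of that length. TFRC also held a TATA box, 33 bases upstream and outside the printed stretch, as did 10.8% of all windows. The matches are letters in a window, not shown to be bound.

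TFR2, a second transferrin receptor that senses iron-loaded transferrin in liver and erythroid cells (ENSG00000106327.13, chromosome 7, minus strand, TSS 100641552), was at 100% in all 17 H3K4 lists. Only 3 of 19962 genes (0.015%) were wholly covered in this way, and the others were ANXA2R and ZSCAN31. The targets differed in other windows of TFR2. At the start 1227 bases upstream coverage was 58.0% ± 13.5 (SD, n = 8) for H3K4me3 and 100% in all 5 H3K4me1 lists. H3K4me3 minus H3K4me1 was -42.0 points there (exact permutation test, adjusted p = 0.0107). With 2.5 kb either side of the canonical start it was -27.7 points (exact permutation test, adjusted p = 0.00896). The TFR2 H3K4me3 peak was 2970 to 6090 bases wide and its H3K4me1 peak 16118 to 107333 bases. TFR2 and HFE were also the 2 of 10 genes whose TSS base lay under a peak in all 5 H3K4me1 lists (19.7% of all genes). The corrected H3K4me3 list had no peak within 63660 bases upstream and 28792 bases downstream of the TFR2 start, while the corrected H3K4me2 and H3K4me1 lists covered its promoter at 100%.

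SLC25A37 encodes mitoferrin-1, which brings iron into the mitochondria of developing red cells (ENSG00000147454.14, chromosome 8, plus strand, TSS 23528956). Its promoter coverage was 0% at lowest, 86.0% at median and 100% at highest in H3K4me3 lists, 89.8%, 100%, 100% and 100% in H3K4me2 lists, and 24.1%, 46.1%, 61.2%, 61.3% and 86.8% in H3K4me1 lists. Each H3K4me2 value was above each H3K4me1 value, a difference of 41.6 points (exact permutation test, p = 0.0159, the smallest these 4 and 5 antibodies allow, adjusted p = 0.252). Of 19962 genes, 1256 reached that smallest p, in either direction. The H3K4me1 lists opened a gap over the TSS in 5 of 5 cases, 264 to 3082 bases wide. The 2 zeros came from Diagenode C15410003 and EpiGentek A-4033-050, the H3K4me3 libraries run beside the AR17 input. Coverage was 0% in both of these, and 88.8% ± 16.9 (SD, n = 6) in the 6 run beside the AR16 input. Input and antibody cannot be told apart here.

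**Figure D2:**
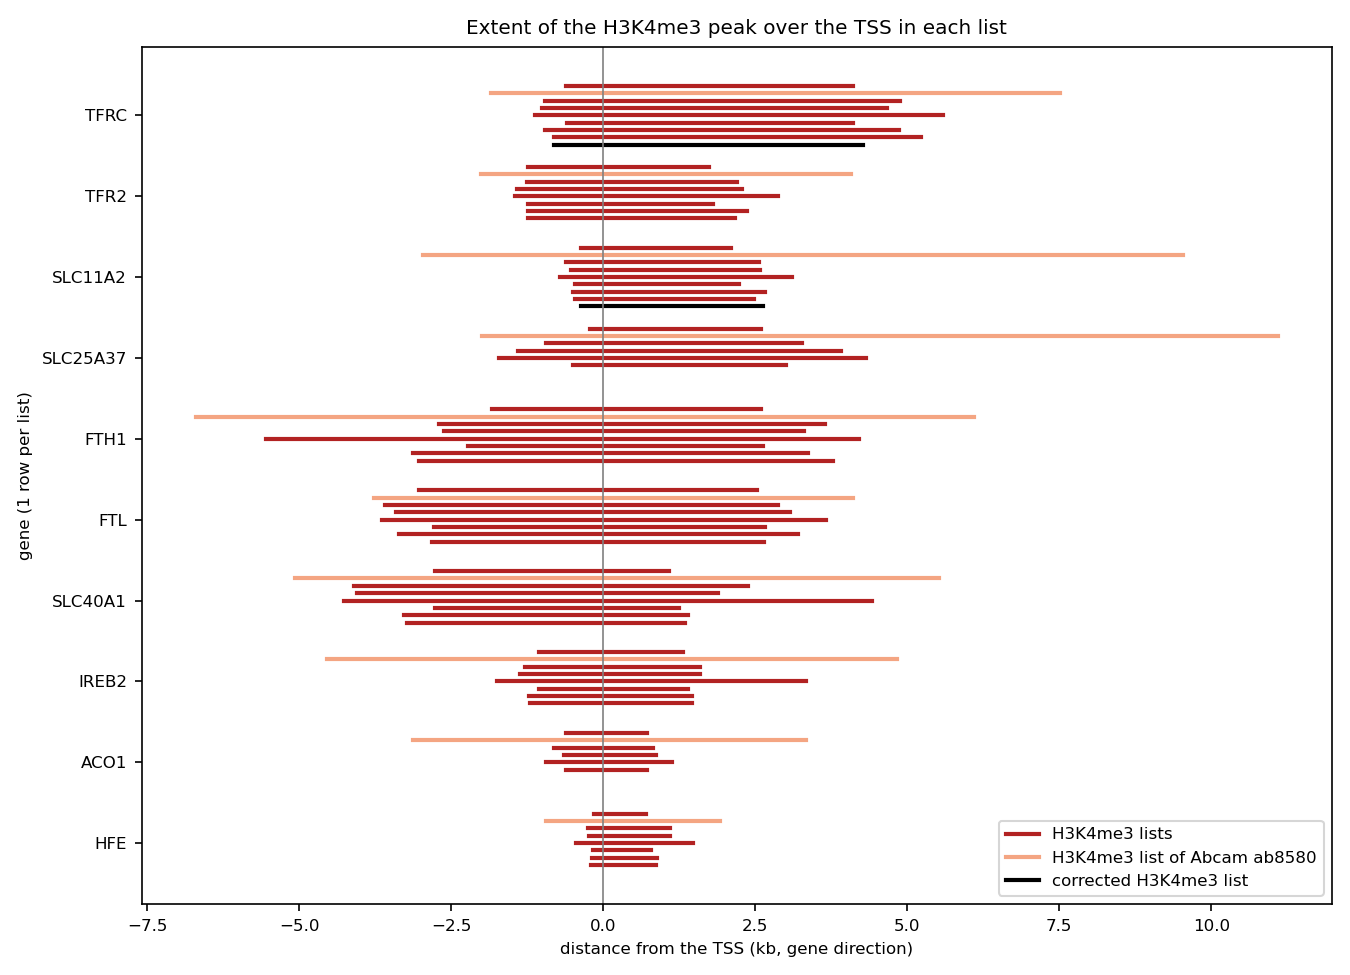
Extent of the peak that covers the TSS in each of the 8 H3K4me3 lists (red, with Abcam ab8580 in light orange) and in the corrected H3K4me3 list (black), for the 10 iron genes; the horizontal axis is distance from the TSS in kb along the gene, and a missing row means no peak over the TSS. In every list with a peak over the TSS, those of TFRC, TFR2, SLC11A2, SLC25A37, IREB2, ACO1 and HFE reach further downstream than upstream. FTH1 peaks do so in 6 of 8 H3K4me3 lists, and FTL and SLC40A1 peaks reach further upstream in 6 of 8. HFE peaks are 852 to 2861 bases wide.

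Both storage genes were wholly covered by H3K4me3 and H3K4me2. FTH1, the ferritin heavy chain that oxidises iron for storage (ENSG00000167996.16, chromosome 11, minus strand, TSS 61967634), and FTL, the ferritin light chain (ENSG00000087086.15, chromosome 19, plus strand, TSS 48965309), were at 100% in all 8 H3K4me3 lists and all 4 H3K4me2 lists. In H3K4me1 lists FTH1 was at 37.2%, 70.9%, 76.2%, 84.6% and 100%, and FTL at 15.6%, 45.3%, 68.4%, 100% and 100%. H3K4me3 was therefore at least as high as H3K4me1 in every pair of lists. FTH1 coverage was higher for H3K4me3, at 100% (n = 8), than for H3K4me1, at 73.8% ± 23.2 (SD, n = 5), by 26.2 points (exact permutation test, adjusted p = 0.0395). FTL, at 100% (n = 8) for H3K4me3 and 65.9% ± 36.3 (SD, n = 5) for H3K4me1, differed by 34.1 points and did not pass (exact permutation test, adjusted p = 0.136). It passed with limma (adjusted p = 0.0394) and with a window of 2.5 kb either side (exact permutation test, adjusted p = 0.0281), and over 22 alternatives the adjusted p was 0.0281 to 0.315.

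Both ferritin peaks were wide. That of FTH1 was 4430 to 12805 bases and that of FTL 5449 to 7886 bases in the 8 H3K4me3 lists, wider than 98.4% to 99.9% and 98.6% to 99.7% of the peaks of each list. FTL peaks extended almost evenly, 2787 to 3769 bases upstream and 2532 to 4116 bases downstream, although the whole gene spans chr19:48965309-48966879. Neither gene had a promoter peak in the H3K27me3 list. With SLC40A1, they were the 3 of 10 genes without one (26.1% of all genes). The promoters wholly covered in all 8 H3K4me3 lists were those of TFR2, FTH1, FTL, SLC40A1 and IREB2, 5 of 10 (5.22%), and the same 3 genes were both wholly covered and free of H3K27me3 (0.792%). H3K27me3 began 7203 bases upstream of FTH1 and no closer than 159601 bases to FTL. The sequence upstream of FTL, a promoter wholly under H3K4me3 and without H3K27me3, is given from RefSeq GRCh38.p14, chr19:48965159-48965308, plus strand, with the same marking of motifs.
FTL: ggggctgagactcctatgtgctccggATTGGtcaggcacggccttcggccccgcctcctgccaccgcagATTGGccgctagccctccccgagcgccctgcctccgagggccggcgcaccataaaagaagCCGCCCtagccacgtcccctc
It holds 2 CCAAT boxes, read here on the opposite strand, and 1 GC box. A further GC box lies 156 bases upstream of the TSS, outside the printed stretch. FTH1 had no entry at this start in the promoter table and is named only.

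SLC40A1 encodes ferroportin, the iron exporter (ENSG00000138449.11, chromosome 2, minus strand, TSS 189580786). It was at 100% in all 8 H3K4me3 and all 4 H3K4me2 lists, and at 30.4%, 69.1%, 72.3%, 81.5% and 100% in H3K4me1 lists. Coverage was higher for H3K4me3, at 100% (n = 8), than for H3K4me1, at 70.6% ± 25.5 (SD, n = 5), by 29.4 points (exact permutation test, adjusted p = 0.0395). Its H3K4me3 peak reached 2761 to 5063 bases upstream and 1089 to 5520 bases downstream, and 2 further annotated starts lie on that upstream side. At the start 1245 bases upstream coverage was 100% in all 8 H3K4me3 lists. At the start 2972 bases upstream it was 77.6% ± 26.9 (SD, n = 8) for H3K4me3 and 100% in all 5 H3K4me1 lists. With the TSS set there, at the 5′ end of the gene, the difference turned to -22.4 points (exact permutation test, adjusted p = 0.313, from 0.0160 to 1 over 22 alternatives). The H3K27me3 list had no peak within 97726 bases upstream and 384467 bases downstream. The SLC40A1 promoter is given for its CpG content, from RefSeq GRCh38.p14, chr2:189580787-189581036, minus strand.
SLC40A1: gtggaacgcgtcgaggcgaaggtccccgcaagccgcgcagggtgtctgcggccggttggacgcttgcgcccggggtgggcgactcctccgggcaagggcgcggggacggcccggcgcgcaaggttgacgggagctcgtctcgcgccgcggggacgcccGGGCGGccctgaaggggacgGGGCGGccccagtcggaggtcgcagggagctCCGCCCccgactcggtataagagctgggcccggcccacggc
It holds 38 CpG dinucleotides in 250 bases, more than 96.7% of all promoter windows, and 3 GC boxes. The other 6 promoters found in the table held 6 to 30 CpG, and the median over all windows was 11. HFE held 6, fewer than 58.9% of windows. None of the 7 promoters matched held AGATAA, TGACNNNGC or CACGTG, present in 9.2%, 10.9% and 6.33% of all windows, in these 250 bases.

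The genes that sense iron differed from one another. IREB2 encodes iron regulatory protein 2 (ENSG00000136381.13, chromosome 15, plus strand, TSS 78438216). It was at 100% in all 8 H3K4me3 lists, at 58.0%, 87.0%, 100% and 100% in H3K4me2 lists and at 31.0%, 39.5%, 46.5%, 64.1% and 100% in H3K4me1 lists. Coverage was higher for H3K4me3, at 100% (n = 8), than for H3K4me1, at 56.2% ± 27.3 (SD, n = 5), by 43.8 points (exact permutation test, adjusted p = 0.0395). The difference turned to -3.97 points when the window was centred on the outermost annotated start, 785 bases upstream, and to -18.0 points with a window of 2.5 kb either side, neither of them called. The H3K4me3 peak was 2373 to 5076 bases in 7 lists and 9376 bases in that of Abcam ab8580. The corrected H3K4me1 peak over the TSS ran from 11027 bases upstream to 13 bases past it, in a list that covered 93.0% within 30 kb. The H3K4me1 lists that left the TSS free, 3 of 5, did so with gaps of 1071 to 1425 bases. H3K27me3 covered the promoter at 100%, as part of a peak of 423496 bases.

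ACO1 encodes iron regulatory protein 1, which is a cytosolic aconitase when it holds an iron-sulphur cluster (ENSG00000122729.19, chromosome 9, plus strand, TSS 32384643). Coverage was 0% at lowest, 71.7% at median and 100% at highest in H3K4me3 lists, 85.6%, 100%, 100% and 100% in H3K4me2 lists, and 0%, 0%, 40.2%, 73.8% and 100% in H3K4me1 lists. It was 0% in the 2 H3K4me3 libraries beside the AR17 input and 81.3% ± 14.6 (SD, n = 6) in the 6 beside the AR16 input. A peak in all 6 of these and in neither of the other 2 was found for SLC25A37 and ACO1 among the 10 genes, and for 11.2% of all genes. Those 2 were also the H3K4me3 lists with the fewest promoters, 40.2% and 33.5% of all genes, and the part of list size in the result was not tested. Where a list had no peak over the ACO1 TSS, the gap differed widely between lists. It was 5025277 bases in the list of Diagenode C15410003, 13067745 bases in that of EpiGentek A-4033-050, 13262390 bases in that of Active Motif 39635 (H3K4me1) and 15639047 bases in the corrected H3K4me3 list. In the other H3K4me1 lists without a peak there it was 51621 bases (Abcam ab8895), 48440 bases (Cell Signaling Technologies 5326 BF) and 525 bases (Thermo Fisher 710795), while 6 of 8 H3K4me3 lists had a peak over the TSS. Within 1 Mb either side, H3K4me3 lists covered 1.85% ± 1.75 (SD, n = 8) at ACO1, against 11.5% ± 18.1 (SD, n = 8) at TFRC, and H3K4me1 lists 15.5% ± 8.71 (SD, n = 5), against 78.6% ± 7.19 (SD, n = 5). The highest H3K4me3 list held 54.7% at TFRC. SLC40A1 was also low within 1 Mb, at 2.93% ± 2.80 (SD, n = 8) for H3K4me3 and 28.4% ± 11.8 (SD, n = 5) for H3K4me1.

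HFE, an MHC class I-like protein that binds the transferrin receptor and takes part in iron sensing (ENSG00000010704.19, chromosome 6, plus strand, TSS 26087429), showed the opposite order. Coverage was 42.6% at lowest, 57.6% at median and 97.4% at highest in H3K4me3 lists, 74.2%, 100%, 100% and 100% in H3K4me2 lists, and 100% in all 5 H3K4me1 lists. The H3K4me3 and H3K4me1 values did not overlap. Coverage was lower for H3K4me3, at 61.3% ± 17.3 (SD, n = 8), than for H3K4me1, by 38.7 points (a difference of -38.7, exact permutation test, p = 0.00155, the smallest that 8 against 5 antibodies allow, adjusted p = 0.0115). That smallest p was reached by 2686 of 19962 genes, in either direction. The H3K4me3 peak was 852 to 2861 bases wide, and reached 706 to 1913 bases into the gene and 145 to 947 bases upstream. The H3K4me1 peak was 5060 to 40883 bases wide. H3K27me3 covered the promoter at 100%, within a peak of 781679 bases.

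**Figure D3:**
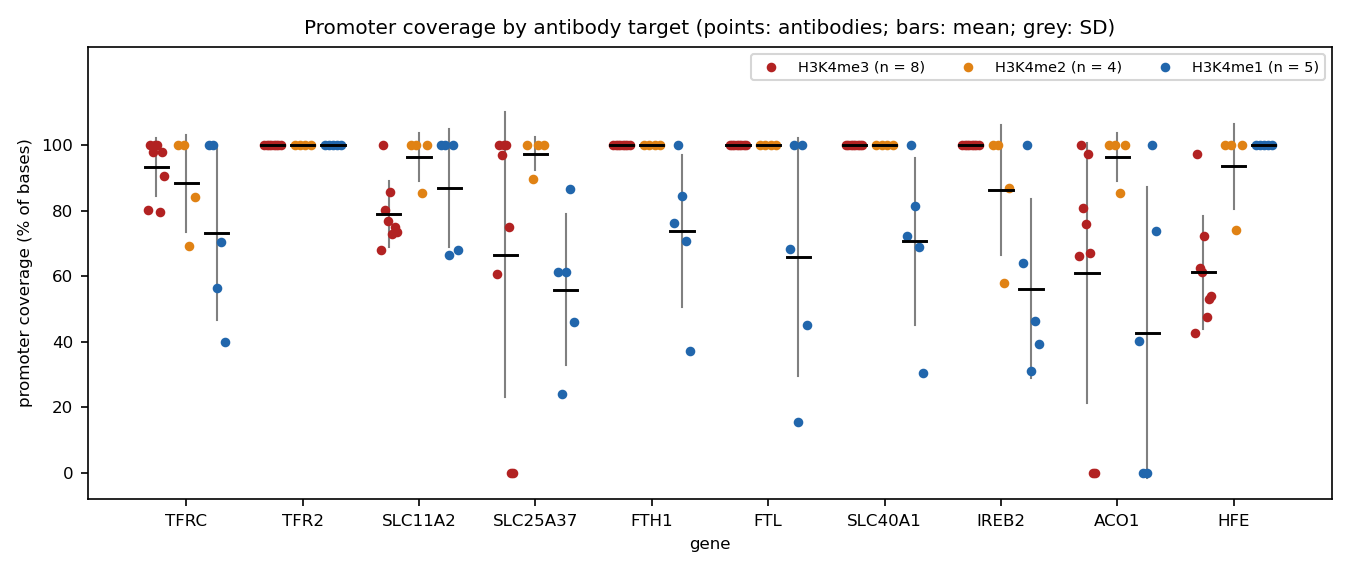
Promoter coverage in percent of bases for the 10 iron genes, 1 point per antibody, with H3K4me3 (red, n = 8) left of H3K4me2 (orange, n = 4) and H3K4me1 (blue, n = 5); black bars are means and grey lines are 1 SD either side. HFE has its 5 H3K4me1 points at 100% above all 8 H3K4me3 points, and FTH1, FTL, SLC40A1 and IREB2 have all 8 H3K4me3 points at 100%.

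Set side by side, promoter coverage in H3K4me3 against H3K4me1 lists was higher for 3 of 10 genes, FTH1, SLC40A1 and IREB2, where 11.3% of all genes were called higher. It was lower for 1 of 10, HFE, where 26.5% of all genes were called lower. The median difference was 19.1 points over the 10 genes and -7.55 points over all genes. The 3 higher differences kept their direction without any one antibody, at 17.1 to 32.8 points for FTH1, 19.3 to 36.7 for SLC40A1 and 37.5 to 54.7 for IREB2, while the adjusted p moved across the threshold. The calls were kept without Abcam ab8580 (adjusted p = 0.0468) and without Active Motif 39635 (0.0197), and lost without any one of the other 11, with adjusted p from 0.0529 to 0.0947 (exact permutation tests). Over all 22 alternatives the adjusted p was 0.0176 to 0.129 for FTH1, 0.0160 to 1 for SLC40A1, 0.00274 to 0.80 for IREB2 and 0.00201 to 0.0556 for HFE. Within the AR16 libraries the adjusted p was 0.0715 for FTH1, SLC40A1 and IREB2 and 0.0245 for HFE (exact permutation tests). No gene of 19962 was called between H3K4me3 and H3K4me2 or between H3K4me2 and H3K4me1 by the exact permutation test at promoters, where 4993 and 2080 genes had an unadjusted p under 0.05. The smallest p this test allows was 0.00404 and 0.0159. A call at that p needed 1613 and 6337 genes to reach it, and 328 and 1256 did. The lack of calls therefore does not show equal coverage. limma called 399 and 266 genes.

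The order of the levels also depended on the target. By mean H3K4me3 coverage the order was TFR2, FTH1, FTL, SLC40A1 and IREB2 at 100%, then TFRC at 93.3%, SLC11A2 at 79.0%, SLC25A37 at 66.6%, HFE at 61.3% and ACO1 at 61.0%. The last 3 differed by less than the SD of each. By mean H3K4me1 coverage TFR2 and HFE came first at 100%, then SLC11A2 at 86.9%, FTH1 at 73.8%, TFRC at 73.4%, SLC40A1 at 70.6%, FTL at 65.9%, IREB2 at 56.2%, SLC25A37 at 55.9% and ACO1 at 42.8%. Neighbours from SLC11A2 on differed by less than their SDs.

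In the corrected lists, all 10 promoters held an H3K4me2 peak (55.1% of all genes), 9 an H3K4me1 peak (71.4%) and 2 an H3K4me3 peak (18.1%). Both Abcam H3K4me3 libraries that went into the correction, ab12209 and ab8580, held a peak at all 10. A peak in every H3K4me3 list and none in the corrected one was found at 6 of 10 genes, TFR2, FTH1, FTL, SLC40A1, IREB2 and HFE, and at 17.3% of all genes. Counted within the genes that had a peak in every H3K4me3 list, that is 6 of 8 here and 3460 of 6206 over all genes. The distance between the corrected H3K4me3 peaks on either side of the TSS was 74527 bases at HFE, 74635 at IREB2, 92451 at TFR2, 127828 at SLC25A37, 254893 at FTH1, 306747 at FTL and 2793636 at SLC40A1. What the correction removed was not tested. The corrected H3K4me1 peak over the TSS ended just past it at several genes, 234 bases downstream at SLC11A2 and SLC25A37 and 251 bases at FTH1. These were ends of single peaks and not of the mark. The list covered 98.5%, 98.8% and 95.2% of the bases within 30 kb of SLC11A2, SLC25A37 and FTH1. At FTL and SLC40A1 the corrected H3K4me1 list left gaps of 1466 and 521 bases over the TSS.

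**Figure D4:**
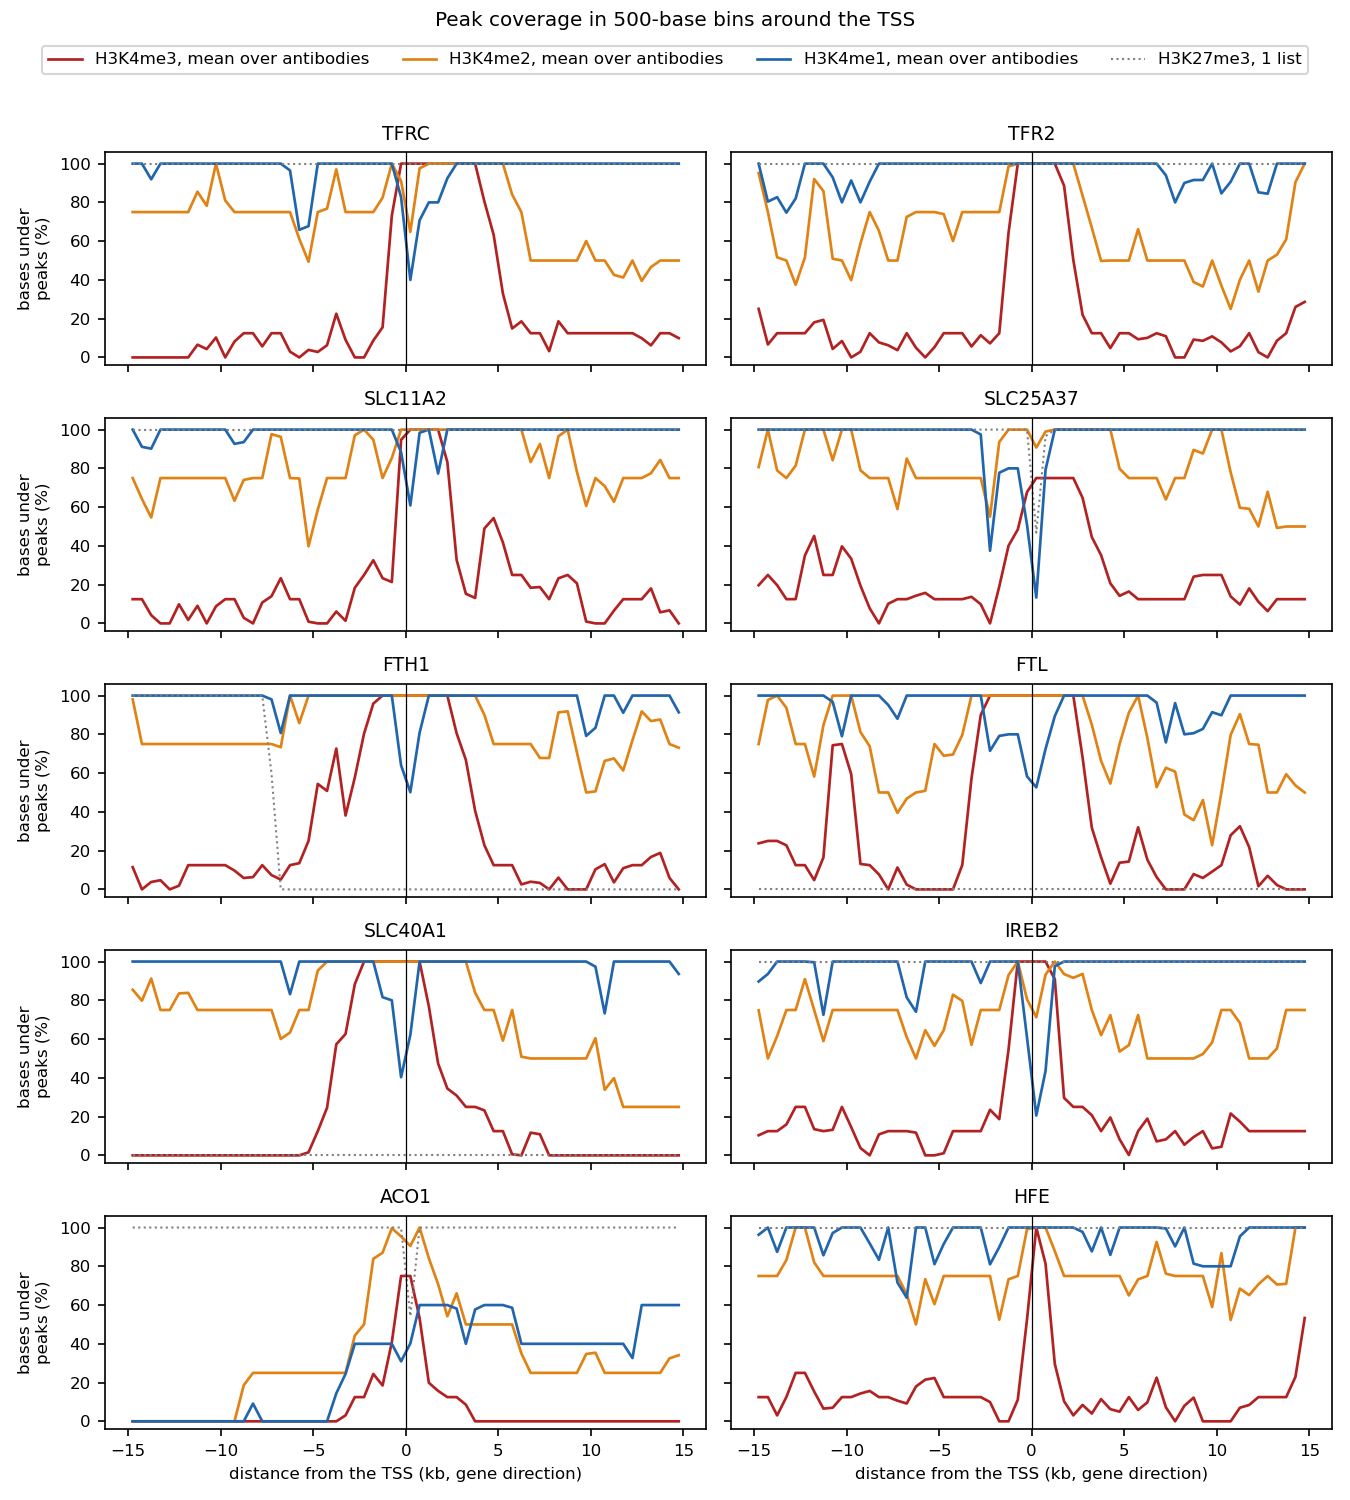
Percent of bases under peaks in 500-base bins within 15 kb of the TSS, averaged over the antibodies of each target (H3K4me3 red, H3K4me2 orange, H3K4me1 blue), with the single H3K27me3 list as a dotted line; 1 panel per iron gene, distance in kb along the gene. H3K4me1 dips at the start of every gene except TFR2 and HFE, least clearly at ACO1, and H3K27me3 is at 0 around FTL and SLC40A1 and downstream of a border 7203 bases upstream of FTH1.

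Over 30 kb either side, H3K4me3 was called lower than H3K4me1 at all 10 genes, and so were 86.8% of all genes, with 0.0852% higher. The count of 10 is therefore close to the background of these lists. At SLC40A1, coverage was 6.42% at lowest, 10.0% at median and 34.7% at highest in H3K4me3 lists, and 90.1%, 98.2%, 98.3%, 99.1% and 99.5% in H3K4me1 lists. The difference was -82.9 points (exact permutation test, adjusted p = 0.00381), and 19746 of 19962 genes had a less negative one. HFE, at 16.0% ± 23.6 for H3K4me3 (SD, n = 8) and 96.2% ± 5.06 for H3K4me1 (SD, n = 5), came next among the 10, with -80.2 points. For 9 genes the mean was 14.2% to 24.2% for H3K4me3, 58.7% to 79.5% for H3K4me2 and 90.7% to 97.4% for H3K4me1. A mean H3K4me1 coverage above 80% was found at 9 of 10 of these genes, against 40.3% of all genes. Without Abcam ab8580 the H3K4me3 means of these 9 genes were 6.67% to 18.6%. ACO1 lay apart at 3.20% ± 3.47 (SD, n = 8), 20.4% ± 20.4 (SD, n = 4) and 21.0% ± 16.9 (SD, n = 5) for H3K4me3, H3K4me2 and H3K4me1. Its difference of -17.8 points between H3K4me3 and H3K4me1 (exact permutation test, adjusted p = 0.0363) stayed at -23.1 to -13.5 points without any one antibody, but was no longer called without any one of 9 (adjusted p of 0.0502 to 0.0932), and over 22 alternatives the adjusted p was 0.0112 to 0.114. The 9 antibodies were Abcam ab12209, Abclonal A2357, EMD Millipore 05-745R, Thermo Fisher PA5-40086, Diagenode C15410003, EpiGentek A-4033-050, Abcam ab8895, EpiGentek A-4031-050 and Thermo Fisher 710795.

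**Figure D5:**
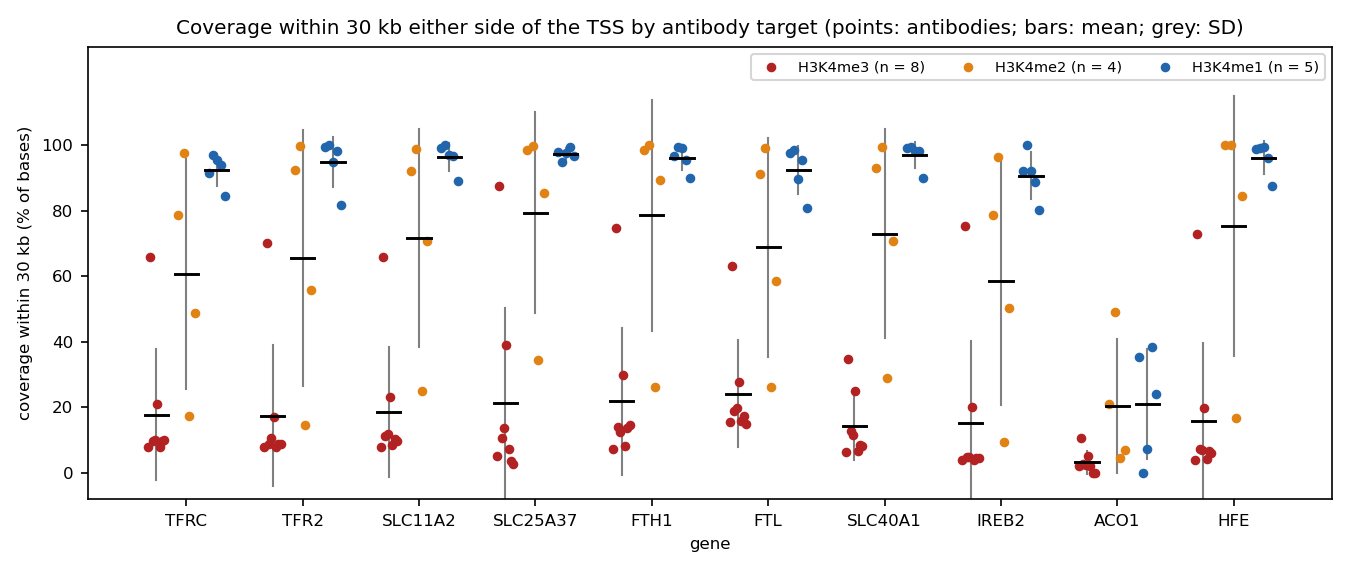
Coverage within 30 kb either side of the TSS, in percent of bases, for the 10 iron genes; 1 point per antibody, H3K4me3 (red, n = 8) left of H3K4me2 (orange, n = 4) and H3K4me1 (blue, n = 5), with means as black bars and 1 SD either side in grey. One H3K4me3 antibody, Abcam ab8580, lies between 34.7% and 87.5% at 9 genes, and ACO1 is low for all targets.

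H3K27me3 covered the whole 30 kb window at 4 of 10 genes, TFR2, SLC11A2, IREB2 and HFE (33.2% of all genes), and left it free at 2, FTL and SLC40A1 (18.8%). It covered 99.5% at SLC25A37, 98.5% at ACO1, 78.0% at TFRC and 38.0% at FTH1. At SLC25A37 and ACO1 the H3K27me3 peak over the TSS ended 233 and 96 bases past the TSS. The H3K27me3 list covered 2029 Mb and 73.9% of all promoters held a peak in it, near the 7 of 10 found here.

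The 30 kb windows of 5 of the 10 genes also hold starts of other protein-coding genes. MOSPD3, with a promoter peak in 8 of 8 H3K4me3 lists, starts 29012 bases downstream of TFR2, and ACTL6B, in 3 of 8, 14896 bases upstream. BEST1, in 6 of 8, starts 17283 bases downstream of FTH1. BAX starts 10434 bases upstream of FTL and had a promoter peak in 6 of 8 H3K4me3 lists, and GYS1 and RUVBL2, both in 8 of 8, start 28000 and 28578 bases downstream. H4C3, a histone gene in 8 of 8 lists, starts 16504 bases downstream of HFE, H1-6, in 1 of 8, 20706 bases downstream, and LETMD1, also in 8 of 8, 21943 bases upstream of SLC11A2. No other protein-coding start lay within 30 kb of TFRC, SLC25A37, SLC40A1, IREB2 or ACO1. The H3K4me3 bases within 30 kb of IREB2 lay entirely within 2.5 kb of its TSS in 6 of 8 lists. Those of ACO1 did so in every list that held any, except that of Abcam ab8580 (77.3%). At TFRC, SLC25A37 and SLC40A1 the highest share within 2.5 kb in any list was 65.9%, 89.2% and 93.2%.

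The nearest gene to each of the 10 was sought by Euclidean distance over the 30 kb coverage in 19 lists. Left out were the 10 genes, the other iron handling and iron-responsive element genes read below, and genes within 1 Mb on the same chromosome. Among the rest, the gene most like HFE was MED18 (5.39 points), that most like SLC11A2 was RAMP2 (5.67), and that most like TFR2 was UQCRH (6.97). The nearest to IREB2 was SLC35B1 (8.23), to FTL TBC1D10B (9.46) and to SLC25A37 CORO1C (10.0). The nearest to FTH1 was FUT1 (12.5), to SLC40A1 RYBP (13.3) and to TFRC NT5C (14.0). ACO1 had the most distant nearest gene, IDNK (23.1). The median distance to all genes was 84.0 points for TFRC and 157.5 points for ACO1, the lowest and highest of the 10.

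Beyond these 10, a list of 32 other iron handling genes was read. Of these, 13 had a promoter peak in all 17 H3K4 lists (27.9% of all genes) and 10 in the corrected H3K4me3 list (18.1%). Promoter coverage in H3K4me3 against H3K4me1 lists was called higher at 4 (11.3% of all genes) and lower at 10 (26.5%), and 30 kb coverage was called lower at 31 (86.8%), shares near those of all genes. ABCB10, a mitochondrial transporter of erythroid cells, CISD1, an iron-sulphur protein of the outer mitochondrial membrane, CYBRD1, a ferric reductase, and FLVCR1, a haem exporter, were among the 13. TMPRSS6, a liver protease that restrains hepcidin, had a peak in none of the 17, FTMT, the mitochondrial ferritin, in 4, and HMOX1, haem oxygenase, and TF, transferrin, in 6 each. Among other genes whose mRNA holds an iron-responsive element, CDC42BPA had a peak in all 17, CDC14A and EPAS1 in 15 each and ALAS2, the erythroid enzyme that opens haem synthesis, in 14.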

How the data were processed

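ICeChIP-seq peak lists of K562 were read as deposited, 1 list per antibody and 3 corrected lists. Per the submitters' processing notes, the authors used Bowtie2, SAMtools, bedtools and MACS2 on GRCh38 (hg38); their versions and the rule for keeping peaks are not stated by the labels or notes used. The other deposited columns are peak starts and ends in bases. The authors' value per peak, a score that no header names, was present in 17 of 22 lists and was used only to rank peaks within a list. Positions alone carry no counting interval.

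Genes and canonical starts came from GENCODE 44 (19962 protein-coding genes with 1 symbol each), and promoter sequences from RefSeq, where 7 of 10 members had an entry at that start. Peaks were merged per list, and coverage was computed for windows of 2001 and 60001 bases. Target groups were compared per gene with a two-sided exact permutation test of the difference of means, adjusted by Benjamini-Hochberg over 19962 genes, threshold 0.05. The test was tested on simulated data. limma 3.58.1 (R 4.3.3) was the alternative test, beside other windows, starts, peak filters and antibody sets. Python 3.11.15, numpy 2.4.6 and scipy 1.17.1 were used.

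The members and lists were chosen with earlier results of these data known. All 10 members are named, with the nearest gene to each among those searched. From the other lists, up to 4 genes with a peak in all 17 lists and up to 4 in the fewest are named, ties by symbol. ANXA2R and ZSCAN31 were named after their values were seen. Not analysed here were 2 K562 inputs and 4 mouse samples. Some genes of the other lists are not reported here.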

Additional observations from a re-analysis of the deposited data

Results flagged for a closer look

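In 60 groups of 4 to 8 antibodies, 1 gene and 1 target each, 16 had a list far from the others (Dixon's 95% critical value), where chance gives about 1 in 20. The groups share libraries and are not independent, and that rate does not apply to the 4 promoter groups for H3K4me2, where the other 3 lists tie at the highest possible value. The Abcam ab8580 list was the outlying one in 8 of them. Its H3K4me3 coverage within 30 kb was 65.9% at TFRC (next highest list 21.0%), 70.0% at TFR2 (17.0%), 66.0% at SLC11A2 (23.3%), 87.5% at SLC25A37 (39.0%), 74.8% at FTH1 (30.0%), 63.3% at FTL (27.9%), 75.4% at IREB2 (20.0%) and 73.1% at HFE (19.7%).

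For H3K4me2, EMD Millipore 05-1338 was lowest within 30 kb of FTH1, at 26.3% against 89.4% in the next list. Its library was the only H3K4me2 library of 12 amplification cycles. At promoters the same list held 85.4% at SLC11A2, 85.6% at ACO1 and 74.2% at HFE, where the other 3 were at 100%, and Cell Signaling Technologies 9725 held 89.8% at SLC25A37, with the other 3 at 100%. For H3K4me1, Thermo Fisher 710795 was lowest within 30 kb of TFR2 at 81.8% (next 95.0%), SLC40A1 at 90.1% (98.2%) and HFE at 87.5% (96.2%).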

How the results depend on the processing

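Over single genes, 1213 alternative values kept direction and side of the threshold, 57 lost a call, 55 gained one and 20 reversed. The 30 kb calls of H3K4me3 against H3K4me1 were kept in all 22 alternatives at 9 genes, ACO1 being the exception, and HFE lost its promoter call with 8-cycle libraries alone (exact permutation test, adjusted p = 0.0556). Of all genes, 7546 differed between H3K4me3 and H3K4me1 at promoters, against 11406 with a 2.5 kb window, 4169 with AR16 libraries, 0 with libraries of 8 cycles and 3468 to 8619 leaving out 1 antibody, of which only Abcam ab8580 and Active Motif 39635 kept it above 4175. Smaller sets of antibodies also raise the smallest p that the permutation test allows, and the part of this in the counts was not tested. limma called 399 genes for H3K4me3 against H3K4me2 and 266 for H3K4me2 against H3K4me1, where the permutation test called 0. Within 30 kb, H3K4me3 against H3K4me2 gave 0 calls, but 12024 with limma, 14771 with peaks at or above the median value, and 0 to 16475 leaving out 1 antibody, 16475 without Abcam ab8580 and 16186 without EMD Millipore 05-1338. In the main test 782 genes reached the smallest p allowed, where a call at that p needed 1613. Promoter differences of H3K4me3 minus H3K4me1 reversed with the 2.5 kb window, to -14.8 points at TFRC, -16.8 at SLC25A37, -0.55 at SLC40A1, -18.0 at IREB2 and -12.4 at ACO1, where the median of all genes moved to -35.7. With 0.5 kb SLC11A2 turned to 22.8, and with the start at the 5′ end SLC40A1 turned to -22.4 and IREB2 to -3.97. For H3K4me3 minus H3K4me2, TFRC turned to -18.8 and IREB2 to -23.1 with 2.5 kb, IREB2 to -8.47 with the 5′ end, and TFRC to -1.42 without EMD Millipore 05-1338 (-1.42 to 8.84 leaving out 1 antibody). SLC11A2 turned to -8.31 for H3K4me2 minus H3K4me1 with the 5′ end. ACO1, for H3K4me2 minus H3K4me1 within 30 kb, turned to 11.6 with a 10 kb window and 4.67 with 8 cycles, and ran from -10.2 to 4.67 leaving out 1 antibody. Promoter peaks of the 10 genes numbered 6 for Abcam ab12209 with peaks at or above the median value, 4 for Thermo Fisher 710795 where at least 50% of the window had to be covered, 5 for H3K9me3 without peaks over 1 Mb, and 1 for corrected H3K4me3 with the 5′ end. The cause was not tested. No paired analysis was possible because the labels give the antibodies no replicate numbers, those used here following accession order only. Unknown depth limits every statement on a missing peak.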
